A study of Mus musculus with 4 samples.

Results

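Solute carriers are membrane proteins that move nutrients, ions, metals and metabolites across the plasma membrane and the membranes of organelles. The 143 solute carrier genes expressed in mouse cultures labelled as female germline stem cells (FGSCs) were compared between cells with a control shRNA (shNC) and cells with an shRNA against *Nat10* (shNAT10). The genes were chosen by their level and name: protein-coding genes with a symbol of Slc followed by a number and a mean of at least 1 FPKM over the 4 libraries, without 11 carriers of amino acids and glucose that were left out by name. FPKM is a count of fragments divided by exon length and by a depth factor of the library, a level that is corrected for gene length. Of 53465 genes in the table, 371 were protein-coding genes with such a symbol. A mean of at least 1 FPKM was reached by 154 of them, the 11 left out included, while 217 stayed under it and 58 were at 0 in every library. Just inside the limit lay *Slc26a1*, *Slc39a7* and *Slc41a3*, with means of 1.02, 1.05 and 1.08 FPKM, and just outside lay *Slc15a3*, *Slc22a23* and *Slc41a2*, with 0.990, 0.985 and 0.945 FPKM. The level and the name chose the genes, so that a gene is expressed is no result here. The rule itself uses no difference between the groups, but it was set with earlier results of these data known.

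The family number in a symbol groups carriers by sequence, and for many families it goes with the kind of substrate. Carriers of the plasma membrane take up glucose, amino acids, phosphate, metals and vitamins, family 25 sits mostly in the inner mitochondrial membrane and links cytosol and matrix, and family 35 brings activated sugars into the Golgi and the endoplasmic reticulum for glycosylation. Zinc is handled by opposed families, as family 30 moves it out of the cytosol and family 39 moves it in.

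Both groups were FGSC cultures labelled as derived from mouse ovary, infected with lentivirus and selected by puromycin or blasticidin according to the study's methods, which do not tie an agent to a group. NAT10 is the enzyme that writes N4-acetylcytidine (ac4C) on RNA, and the question was how the transcriptome differs when it is depleted. Each group held 2 libraries, shNC-1 and shNC-2 against shNAT10-1 and shNAT10-2, and the labels do not name the strain or the age of the donor mice or which *Nat10* shRNA was used. The labels describe a poly(A) mRNA isolation and the methods an rRNA depletion, so the records differ on the preparation. The study's legend calls the 2 libraries of a group biological replicates, but neither it nor the labels say that they came from separate cultures, so the p-values measure the spread between these libraries, which may be technical in part.

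*Nat10* stood at 7.79 and 5.42 FPKM in shNC-1 and shNC-2 and at 2.95 and 3.04 FPKM in shNAT10-1 and shNAT10-2. Each shNAT10 library was under the lower control, and the log2 fold change of shNAT10 over shNC (log2FC) was -1.09 ± 0.21 (limma, Benjamini-Hochberg adjusted p = 0.123). The value after ± is the standard error here and below. A two-sided exact permutation test gave p = 0.3333, which is the smallest that 2 libraries against 2 allow. Without shNAT10-1 the log2FC of *Nat10* was -1.07 with a limma p of 0.0915, and without shNAT10-2 it was -1.11 with 0.0859, and neither fit kept the call. Without shNC-1 it was -0.83 and without shNC-2 -1.35, and both kept it. Fragments recovered from the FPKM totalled 11055849 to 14900422 per library. Loci to which rRNA and repeat reads map took 48.3% and 38.4% of them in shNC and 26.8% and 28.6% in shNAT10.

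The label of germ stem cells was checked against markers. Of 8 germline markers, *Dazl*, *Dppa3*, *Pou5f1* and *Tfap2c* were at 0 in every library and 7 had a mean under 1 FPKM. *Ifitm3* alone was above it, with 9.29 and 22.2 FPKM in shNC, against 27.1 and 33.6 FPKM in shNAT10. The defining germ cell helicase *Ddx4* was listed at 0 in 3 libraries and at 0.0529 FPKM in shNAT10-1. Markers of leukocytes were present instead. The 7 pan-leukocyte markers summed to 508 and 564 FPKM in shNC and to 402 and 423 FPKM in shNAT10, with none at 0 and *Ptprc*, the common leukocyte antigen, at 15.3 to 15.5 FPKM. Of the 7 mast cell markers, *Fcer1a* and *Tpsb2* were at 0, whereas the mast cell protease *Cpa3* was at 245 to 272 FPKM. The mast cell list summed to 312 and 323 FPKM in shNC and to 322 and 318 FPKM in shNAT10. The 4 macrophage markers summed to 47.7 and 52.5 FPKM in shNC and to 37.1 and 41.7 FPKM in shNAT10, of which *Adgre1* gave 33.2 to 47.8 FPKM while *Csf1r*, *Cd68* and *Mrc1* were each at 3.22 FPKM or under. The 6 fibroblast markers, with *Lum* at 0, summed to 51.7 and 44.8 FPKM and to 60.7 and 51.4 FPKM, of which *Dcn* gave 36.2 to 45.9 FPKM. The 5 erythroid, 4 granulosa cell and 3 meiosis markers stayed at or under a sum of 2.48 FPKM in each library, with *Hbb-bs*, *Foxl2*, *Fshr* and *Stra8* at 0. In these libraries the defining germline transcripts were thus at or near 0, which goes against the label, while leukocyte transcripts were abundant. The study also examined germline markers in its FGSCs by RT-PCR and immunofluorescence, assays that were not analysed here. The carriers below are those of the cultures as sequenced. In such bulk RNA, fewer cells of a type and less RNA per cell cannot be told apart.

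Mean levels among the 143 genes ran from 1.02 to 145.8 FPKM. The median of the means was 4.52 FPKM, 31 genes had a mean of at least 10 FPKM and 33 lay under 2 FPKM. *Slc25a4*, the mitochondrial carrier that exchanges ADP for ATP, was highest at 145.8 FPKM on average. Next came its relative *Slc25a5* at 68.1 FPKM, the calcium-regulated ATP-magnesium and phosphate carrier *Slc25a24*, named after its values had been seen, at 51.7 FPKM and the zinc importer *Slc39a6* at 39.5 FPKM. Every member was detected in each library, the least with 20 fragments, and 135 of the 143 were at 1 FPKM or above in all 4. Summed over all members, the level was 1351 and 1354 FPKM in shNC and 1282 FPKM in each shNAT10 library. By class, the sum was largest for the 33 mitochondrial carriers, at 536 and 546 FPKM in shNC and at 539 and 529 FPKM in shNAT10.

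**Figure D1:**
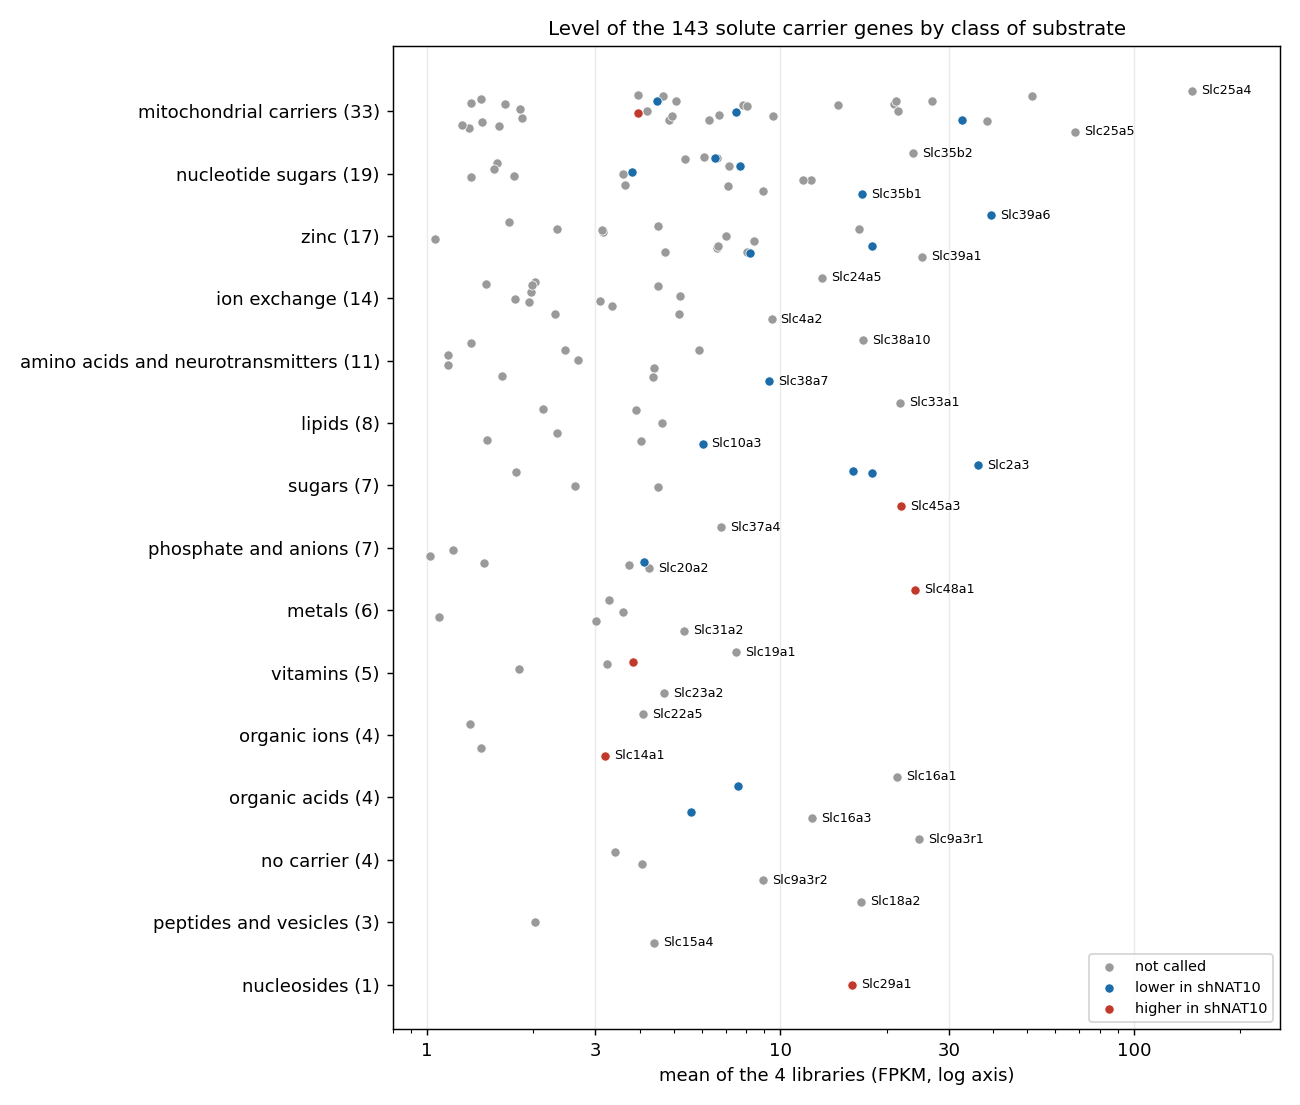
Mean FPKM over the 4 libraries (log axis) of each of the 143 solute carrier genes, 1 point per gene, grouped by class of substrate with the number of genes in brackets. Colour marks the genes called higher or lower in shNAT10, and the 2 highest genes of each class are named, with Slc25a4 at 145.8 FPKM farthest to the right.

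Carriers that differed were mostly lower in shNAT10. A call needed a fold change above 1.2 with a limma p, not adjusted, of at most 0.05 on log2(FPKM + 0.1), a scale that understates the change of low genes. By this rule 18 of the 143 fell and 6 rose, while 119 were not called. The 18 that fell were led by the glucose transporter *Slc2a3*, the lysosomal glutamine exporter *Slc38a7* and the GDP-fucose transporter *Slc35c1*, and the 6 that rose by the thiamine transporter *Slc19a2*. The largest fall was -0.84 and the largest rise 0.82 on the log2 scale.

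The share of members called lay between those of the backgrounds. Of the members 16.8% were called, against 16.2% of all 20116 genes tested and 21.7% of the 9714 protein-coding genes with a mean of at least 1 FPKM. The share that rose was 4.20%, against 8.41% of all genes and 11.1% of the protein-coding genes. The share that fell was 12.6%, against 7.83% and 10.6%. Counts by class and by list below, many of them of few genes, are to be read beside these shares. The median log2 fold change of the members was -0.10, beside 0.01 over all genes tested and -0.01 over the protein-coding genes, with 55 members above 0 and 88 below. The libraries of the groups did not overlap for 76 members (53.1%), against 48.0% of all genes and 57.1% of the protein-coding genes, and among these 25 were higher and 51 lower in shNAT10. In all 24 called genes the groups were apart, which a call with 2 libraries per group nearly requires.

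No member (0 of 143) reached an adjusted p under 0.05 in limma with Benjamini-Hochberg adjustment, as 0.437% of all genes tested did, while 24 had an unadjusted p of at most 0.05. The lowest adjusted p was 0.072, for *Slc38a7*. The same limma fit over genes with a mean of at least 1 FPKM alone had 1 member with an adjusted p under 0.05. With limma-voom on the recovered fragments 16 members had an adjusted p under 0.05. For this fit and the one before it, the share of all genes under that limit was not counted, so neither count has a background. Limma-voom called 12 members higher and 27 lower, 39 of 143, against 19.4% of all genes in that fit. Limma without the mean-variance trend called 2 higher and 8 lower, 10 of 143, against 13.7% of all genes. The place of the members relative to all genes thus differed between the fits. The 10 calls kept without the trend were *Slc2a3*, *Slc14a1*, *Slc19a2*, *Slc20a1*, *Slc25a33*, *Slc25a38*, *Slc35b1*, *Slc35b3*, *Slc35c1* and *Slc38a7*. No called member changed sign under any setting tried.

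Many calls were lost when a library was left out. Without shNC-1, 6 members were higher and 9 lower, and 9 of the 24 calls were kept. These were *Slc2a3*, *Slc14a1*, *Slc19a2*, *Slc25a10*, *Slc25a33*, *Slc25a38*, *Slc35b1*, *Slc35c1* and *Slc38a7*. Without shNC-2, 3 were higher and 17 lower, and the 13 calls kept were the same without *Slc25a10* and with *Slc2a6*, *Slc20a1*, *Slc25a15*, *Slc30a5* and *Slc39a6*. Without shNAT10-1, 1 was higher and 6 lower, and the 6 calls kept were *Slc25a33*, *Slc25a38*, *Slc35b1*, *Slc35b3*, *Slc38a7* and *Slc45a3*. Without shNAT10-2, 4 were higher and 7 lower, and the 8 calls kept were those 6, *Slc39a11* and *Slc50a1*. Of all genes these fits called 16.9%, 15.5%, 9.98% and 10.9% in the same order. The calls lost had limma p-values of 0.0506 to 0.264. Over the 4 omissions 60 calls were lost, and in 26 of these the log2FC was at least as large in size as with all libraries. *Slc25a33*, *Slc25a38*, *Slc35b1* and *Slc38a7* were called under each of these omissions. *Slc10a3*, *Slc13a2*, *Slc16a6*, *Slc29a1*, *Slc35a1* and *Slc48a1* were called under none.

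Other measures moved with the groups. Of the 7 pan-leukocyte markers 5 were lower in shNAT10 and none higher. Of the mast cell markers *Kit* and *Gata2* were lower and *Ms4a2* higher, of the macrophage markers *Adgre1* was lower, and of the fibroblast markers *Col3a1* and *Pdgfra* were higher. The rRNA-related share of fragments was higher in shNC. When the libraries were scaled to the fragments outside rRNA-related loci, 9 members were called higher and 17 lower, and the median of the members was -0.05 with that of all genes at 0.05. The part of these markers in the differences of the carriers was not tested. Exons of 11 of the 24 called genes overlap another annotated gene, and although the labels name a directional kit, whether strand was used in counting is not stated. Among the 92 members without such an overlap, 2 were higher and 11 lower. Neither of the 2 members with a group mean under 1 FPKM, *Slc7a8* and *Slc26a1*, was called.

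**Figure D2:**
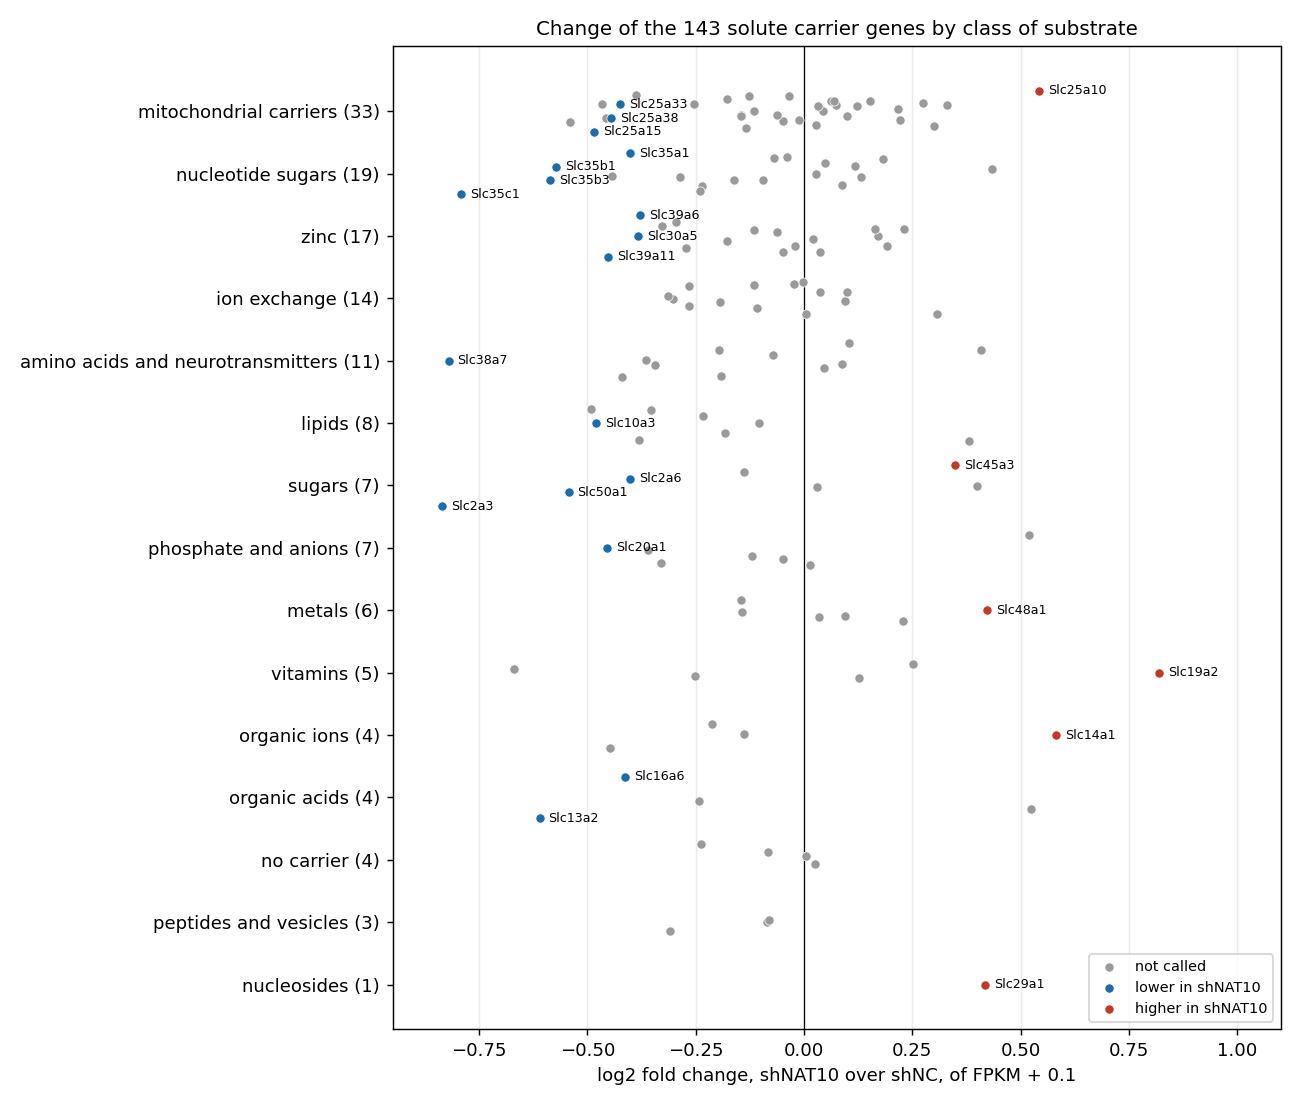
Log2 fold change of shNAT10 over shNC for each of the 143 solute carrier genes, 1 point per gene, by class of substrate with the number of genes in brackets. The 18 genes called lower and the 6 called higher are coloured and named, and they lie between -0.84 and 0.82.

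**Figure D3:**
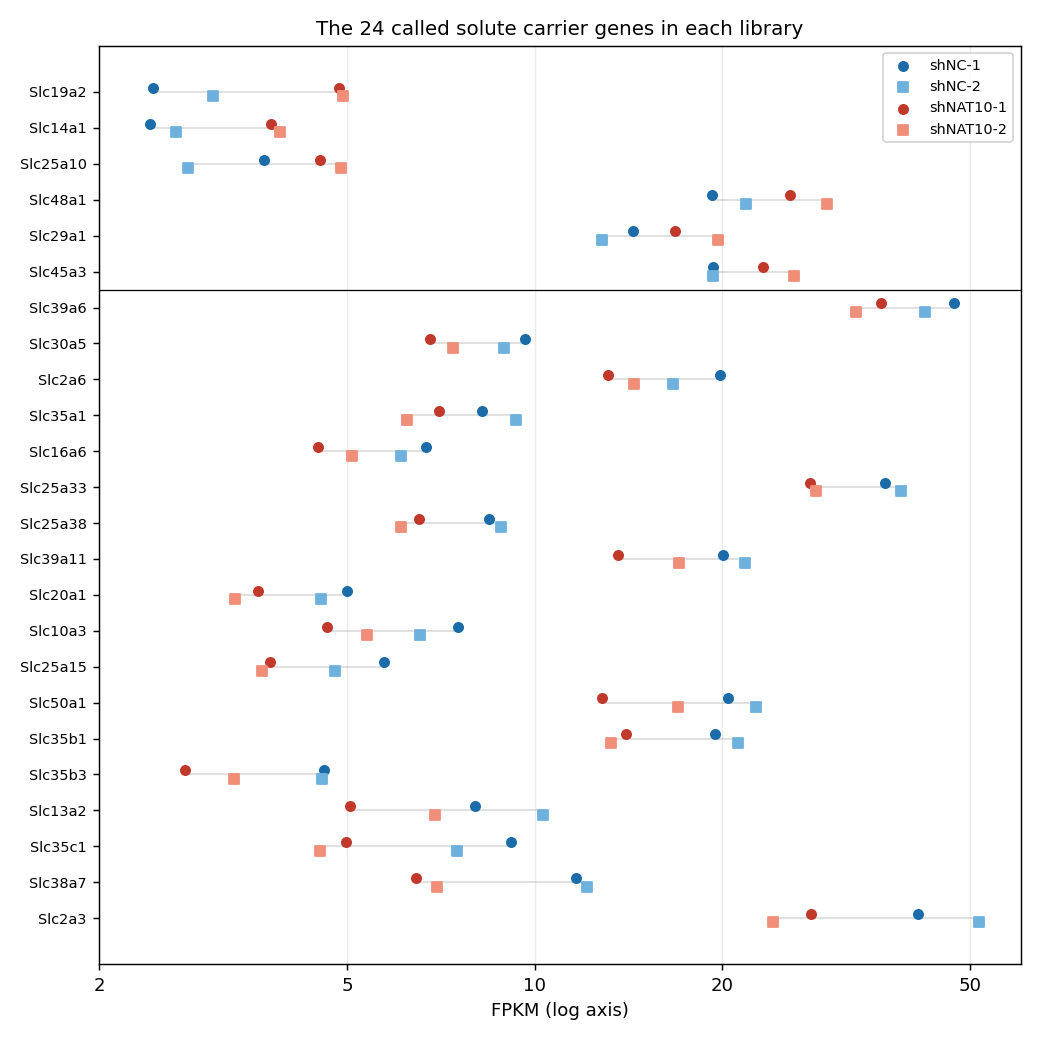
FPKM (log axis) of the 24 called genes in each of the 4 libraries, with the genes that rose above the line and those that fell below it, 1 marker per library. For each of the 24 genes the shNC and shNAT10 markers do not overlap, which the call itself nearly requires.

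Promoter sequences are shown for called members that share a short motif close to the start. RefSeq windows of GRCm38.p6, from 250 bases before to 50 after a gene's start, were found for 113 of the 143 members. They were searched on both strands for CACGTG (E-box), TGACGTG (unfolded protein response element core), TGACGTCA (cyclic AMP response element), TGATGCAA (amino acid response element core) and TGCNCNC. The last, with any base at N, is a looser pattern than the metal response element core and also matches other sequences. The E-box was singled out after the matches of all these motifs had been seen. It was found in 6 of the 14 genes that fell and had a window (42.9%), in 1 of 4 that rose, and in 14 of 95 that were not called (14.7%). A gene with several RefSeq starts has a window for each, and per window the counts were 6 of 19, 1 of 12 and 15 of 125. Among all protein-coding genes with a mean of at least 1 FPKM 955 of 7660 with a window held it (12.5%), and 8.09% of all genes with a RefSeq window did. CACGTG and TGACGTG both hold ACGTG, but with another base before it, so a given copy cannot count for both. The loose metal response pattern TGCNCNC was in 57.1% of the genes that fell and in 68.1% of all members, against 64.1% of the protein-coding genes. The other motifs were in at most 1 of the 14 genes that fell. A match is a description of letters and not of binding.

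The sequences below are the parts of those windows upstream of the start, written in the direction of the gene, with the E-box in capitals. They are printed because 5 of these genes fell and 1, *Slc29a1*, rose with the same letters. The match of the zinc importer *Slc39a11*, which fell as well, lies after its start and is not printed. The starts are those of RefSeq, and the start of *Slc29a1* is an alternative within the gene. *Slc20a1* has matches beginning 175 and 22 bases before its start. In the others the match begins 8 bases before the start for *Slc25a33*, 77 for *Slc25a15*, 34 for *Slc38a7*, 61 for *Slc30a5* and 75 for *Slc29a1*.
Slc20a1, chr2:129198538-129198663, plus strand: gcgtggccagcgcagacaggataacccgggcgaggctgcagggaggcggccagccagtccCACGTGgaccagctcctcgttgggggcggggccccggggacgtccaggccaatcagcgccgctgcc
Slc20a1, chr2:129198691-129198772, plus strand: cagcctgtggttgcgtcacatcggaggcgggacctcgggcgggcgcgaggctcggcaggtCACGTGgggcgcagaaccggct
Slc25a33, chr4:149774268-149774335, minus strand: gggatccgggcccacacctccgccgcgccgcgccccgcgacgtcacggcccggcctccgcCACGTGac
Slc25a15, chr8:22398289-22398414, minus strand: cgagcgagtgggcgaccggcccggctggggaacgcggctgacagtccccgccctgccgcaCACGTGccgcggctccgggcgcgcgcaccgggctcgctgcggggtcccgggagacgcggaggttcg
Slc38a7, chr8:95853492-95853585, minus strand: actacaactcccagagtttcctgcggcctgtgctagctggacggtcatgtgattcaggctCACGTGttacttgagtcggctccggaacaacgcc
Slc30a5, chr13:100833428-100833548, minus strand: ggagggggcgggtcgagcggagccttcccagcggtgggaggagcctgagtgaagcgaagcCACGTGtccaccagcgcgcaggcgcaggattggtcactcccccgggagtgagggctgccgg
Slc29a1, chr17:45595256-45595381, minus strand: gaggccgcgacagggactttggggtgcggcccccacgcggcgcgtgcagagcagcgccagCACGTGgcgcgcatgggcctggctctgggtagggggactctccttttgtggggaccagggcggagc

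Among the 7 members of the sugar families, *Slc2a3*, *Slc50a1* and *Slc2a6* fell, *Slc45a3* rose and 3 were not called. Of all genes tested 16.2% were called, and of the protein-coding genes with a mean of at least 1 FPKM 21.7%. *Slc2a3*, the high-affinity glucose transporter GLUT3, is at chr6:122727809-122801640 (GRCm38), minus strand. Its level was 41.3 and 51.7 FPKM in shNC-1 and shNC-2, against 27.7 and 24.1 FPKM in shNAT10-1 and shNAT10-2. Both shNAT10 libraries were below both controls, a 1.78-fold lower level (log2FC -0.84 ± 0.15, limma, Benjamini-Hochberg adjusted p = 0.114). When single libraries were left out the log2FC was -0.997 to -0.67, and it passed the threshold in 2 of the 4 fits. The sugar efflux protein *Slc50a1* was at 20.4 and 22.7 FPKM in shNC and at 12.8 and 17.0 FPKM in shNAT10. *Slc2a6*, a hexose transporter of lysosomes, was at 19.9 and 16.7 FPKM against 13.1 and 14.4 FPKM. In each both shNAT10 libraries were below both controls. The log2 fold change with a library left out was -0.74 to -0.34 for *Slc50a1* and -0.53 to -0.28 for *Slc2a6*, and each passed in 1 of the 4 fits. Scaled to the fragments outside rRNA-related loci, *Slc2a6* was not called (-0.35). *Slc45a3*, named for a putative sugar transporter known from prostate, was at 19.3 FPKM in each control and at 23.2 and 26.1 FPKM in shNAT10, with a log2FC of 0.35 (0.27 to 0.43 with a library left out). Of its exon bases 481 also belong to another gene on the same strand. The class sum was 110 and 119 FPKM in shNC, against 86.6 and 90.4 FPKM in shNAT10. Family 5, which holds the sodium-driven glucose cotransporters, was represented by *Slc5a3* and *Slc5a6* alone, known carriers of inositol and of biotin and pantothenate, and neither was called.

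Of the 4 carriers of organic acids, 2 fell and 2 were not called. *Slc13a2*, a sodium-coupled carrier of succinate, citrate and related acids, was at 8.01 and 10.3 FPKM in shNC and at 5.05 and 6.92 FPKM in shNAT10, a log2FC of -0.61 ± 0.21. Of its exon bases 26.2% overlap an antisense gene, *Slc13a2os*, and the call was lost with any library left out (-0.83 to -0.39). *Slc16a6*, a monocarboxylate carrier, was at 6.70 and 6.11 FPKM against 4.49 and 5.09 FPKM, and 23.5% of its exon bases overlap other genes. Its log2 fold change of -0.41 ran from -0.50 to -0.32 with a library left out, and no fit kept the call. The lactate carriers *Slc16a1* and *Slc16a3* had log2FC values of opposite sign, and neither was called. *Slc16a1* had 20.7 and 14.5 FPKM in the controls against 28.6 and 21.8 FPKM in shNAT10 (log2FC 0.52 ± 0.23). *Slc16a3*, the form used mostly for lactate export, had 13.0 and 13.7 FPKM against 10.7 and 11.8 FPKM (log2FC -0.24 ± 0.10). Their groups did not overlap, but the controls of *Slc16a1* lay far apart. Limma-voom called *Slc16a1* higher (log2FC 0.52), and so did limma with the replicate number as a block.

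Only *Slc38a7* of the 11 members among carriers of amino acids and neurotransmitters was called. The gene is at chr8:95835920-95853539, minus strand. It encodes a transporter that releases glutamine and asparagine from lysosomes. Its level was 11.7 and 12.1 FPKM in shNC, against 6.44 and 6.96 FPKM in shNAT10. The replicates of each group differed by less than 1 FPKM, and the groups by a factor of 1.77 (log2FC -0.82 ± 0.10, limma, Benjamini-Hochberg adjusted p = 0.072). The log2 fold change was -0.88 to -0.77 with each library left out, and the call held in all 4 fits. The other 10 ranged from -0.42, for *Slc38a6*, to 0.41, for the taurine and GABA carrier *Slc6a13*. *Slc38a10*, the highest of the class, was at 17.7 and 15.5 FPKM in shNC and at 17.2 and 18.0 FPKM in shNAT10. The 11 carriers left out by name, 10 of them carriers of amino acids or their heavy chain, held 5 that fell and none that rose. Of all genes tested 7.83% fell and 8.41% rose, and of the protein-coding genes with a mean of at least 1 FPKM 10.6% and 11.1%. Those that fell were the glucose carrier *Slc2a1*, the heavy chain *Slc3a2* and the amino acid carriers *Slc1a5*, *Slc7a1* and *Slc38a1*.

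Among the 33 genes of family 25, the mitochondrial carriers, 3 fell, 1 rose and 29 were not called. The share called was 12.1%, under the 16.2% of all genes tested and the 21.7% of protein-coding genes with a mean of at least 1 FPKM. The median log2 fold change was -0.03. *Slc25a33*, which imports pyrimidine nucleotides, lies on chromosome 4 from 149744036 to 149774277 on the minus strand. It was at 36.5 and 38.7 FPKM in shNC and at 27.7 and 28.2 FPKM in shNAT10 (log2FC -0.42 ± 0.08), and the call held with any library left out. Of its exon bases 14.9% overlap another gene. *Slc25a38*, the glycine importer needed for the first step of haem synthesis, was at 8.43 and 8.83 FPKM against 6.53 and 6.10 FPKM, and it too held in all 4 fits. In both genes the replicates lay close together and the groups apart. *Slc25a15*, the ornithine carrier of the urea cycle, was at 5.73 and 4.77 FPKM against 3.76 and 3.65 FPKM. *Slc25a10*, which exchanges dicarboxylates for phosphate, was the member that rose, from 3.67 and 2.78 FPKM to 4.52 and 4.89 FPKM. The last 2 had log2 fold changes of -0.49 (-0.62 to -0.36 with a library left out) and 0.54 (0.35 to 0.74), and each was called in 1 of the 4 fits.

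The most abundant mitochondrial carriers were not called. *Slc25a4* was at 137.6 and 141.6 FPKM in shNC and at 148.1 and 155.9 FPKM in shNAT10, and *Slc25a5*, whose protein does the same exchange, was at 68.3 and 70.4 FPKM against 74.6 and 59.0 FPKM. These genes and their pseudogenes are near-identical in parts, so the split of fragments between them is uncertain. The phosphate carrier *Slc25a3* was at 7.29 and 6.85 FPKM against 6.80 and 5.97 FPKM. The iron importer *Slc25a37*, used strongly by cells that make haem, was at 15.5 and 13.0 FPKM against 14.8 and 15.0 FPKM. Set beside the sugar families, whose summed level was lower in both shNAT10 libraries, the sums of family 25 in the 2 groups overlapped.

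Of the 17 zinc carriers 3 fell and none rose, where 16.2% of all genes were called, and limma without the trend called none of the 3. Among the 7 exporters of family 30 this was *Slc30a5*, which loads zinc into the early secretory pathway, with 9.66 and 8.92 FPKM in shNC, against 6.79 and 7.40 FPKM in shNAT10. Among the 10 importers of family 39 the genes were *Slc39a6*, at 47.1 and 42.3 FPKM against 35.9 and 32.8 FPKM, and *Slc39a11*, at 20.02 and 21.8 FPKM against 13.6 and 17.1 FPKM. The log2 fold changes were -0.38 (-0.44 to -0.32 with a library left out), -0.38 (-0.46 to -0.30) and -0.45 (-0.61 to -0.29) in this order, and each call held in 1 of the 4 fits. The importers summed to 118 and 123 FPKM in shNC and to 103 and 107 FPKM in shNAT10, and the exporters to 51.4 and 52.8 FPKM and to 53.1 and 51.4 FPKM. The median log2 fold change was -0.15 for the importers and -0.02 for the exporters. Neither the main exporter of the plasma membrane, *Slc30a1*, nor the importer *Slc39a1* was called. *Slc30a1* was at 6.32 and 6.86 FPKM against 7.26 and 7.58 FPKM, and *Slc39a1* at 20.7 and 26.3 FPKM against 24.6 and 29.0 FPKM. The value of *Slc39a7*, the importer of the endoplasmic reticulum, is uncertain, since 2084 bases of its exons also belong to another annotated gene on the same strand.

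Genes that bind zinc in the cytosol were listed beside the carriers. Of the 3 genes listed for zinc buffering, the metallothioneins *Mt1* and *Mt2* fell and *Mtf1*, the zinc sensor that drives them, was not called. *Mt2* was at 45.0 and 51.4 FPKM in shNC and at 33.2 and 29.8 FPKM in shNAT10 (log2FC -0.61 ± 0.11). *Mt1* was at 18.6 and 18.8 FPKM against 14.5 FPKM in each shNAT10 library, and its call held in all 4 fits with a library left out. *Mtf1* was at 2.18 and 2.19 FPKM against 1.82 and 1.83 FPKM.

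**Figure D4:**
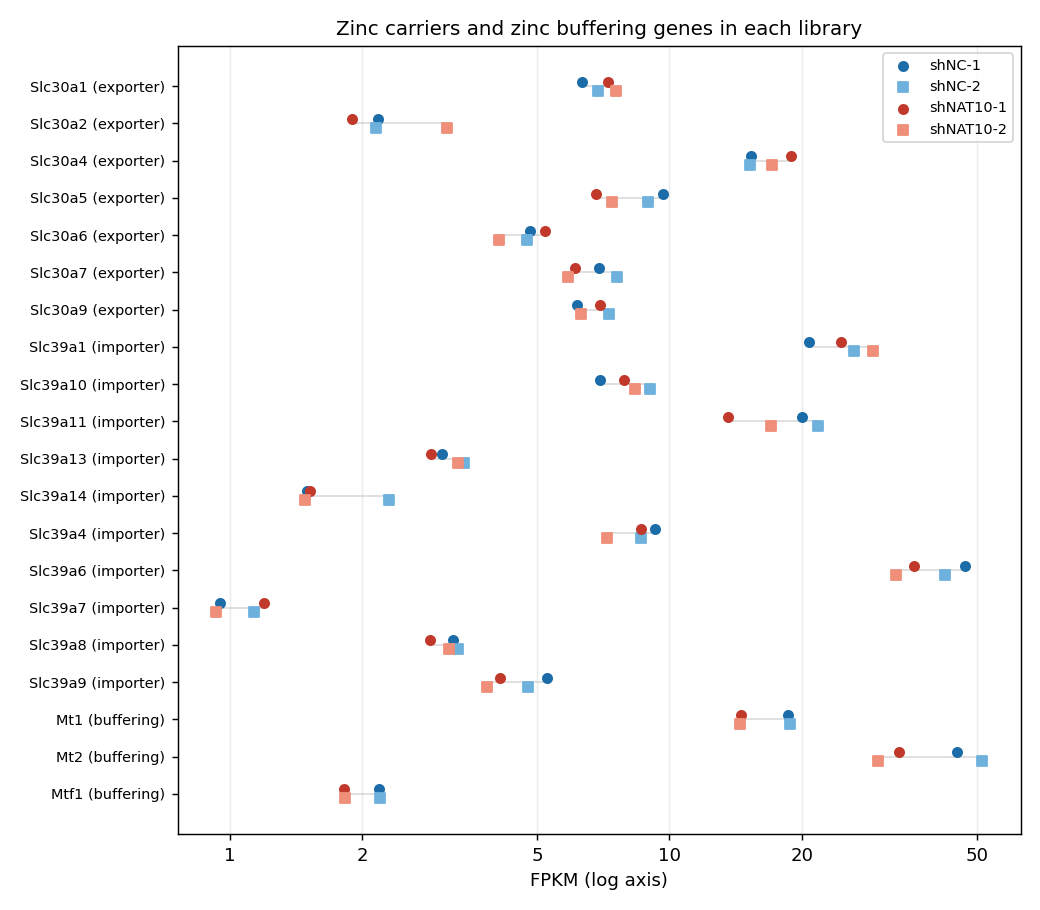
FPKM (log axis) of the 7 zinc exporters of family 30, the 10 zinc importers of family 39 and the zinc buffering genes Mt1, Mt2 and Mtf1 in each of the 4 libraries, 1 marker per library. Slc30a5, Slc39a6, Slc39a11, Mt1 and Mt2 have both shNAT10 markers to the left of the shNC markers and were called.

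The 6 carriers of iron, copper, magnesium and haem held 1 gene that rose and none that fell. *Slc48a1*, which brings haem out of lysosomes into the cytosol, was at 19.2 and 21.8 FPKM in shNC and at 25.6 and 29.5 FPKM in shNAT10 (log2FC 0.42 ± 0.12). The log2 fold change was 0.32 to 0.52 with a library left out, and no such fit kept the call. *Slc11a2*, the proton-coupled iron importer, was at 3.82 and 3.73 FPKM against 3.34 and 3.48 FPKM. *Slc40a1*, the iron exporter, had a mean of 0.0197 FPKM and *Slc11a1*, the iron and manganese carrier of phagosomes, 0.388 FPKM, so neither belongs to the 143 genes. Of the 7 genes listed for iron outside the carrier families, 2 fell and 1 rose. *Tfrc*, the transferrin receptor, was at 143 and 156 FPKM in shNC and at 98.7 and 98.0 FPKM in shNAT10 (log2FC -0.60 ± 0.09, limma, Benjamini-Hochberg adjusted p = 0.084). *Hmox1*, the enzyme that degrades haem, was at 15.1 and 25.6 FPKM against 7.73 and 8.01 FPKM. *Steap3*, the ferrireductase of endosomes, rose from 3.93 and 3.27 FPKM to 5.34 and 4.999 FPKM.

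Family 35 gave 4 of the 18 falls. Of its 19 members none rose and 15 were not called. The share called was 21.1%, against 16.2% of all genes tested and 21.7% of the protein-coding genes with a mean of at least 1 FPKM. Of those backgrounds 7.83% and 10.6% fell. The sum over the family was 148 and 143 FPKM in shNC, against 130 and 129 FPKM in shNAT10. *Slc35c1*, the GDP-fucose transporter of the Golgi, was at 9.15 and 7.51 FPKM in shNC and at 4.99 and 4.52 FPKM in shNAT10. The groups were apart by a log2FC of -0.79 (± 0.15, limma, Benjamini-Hochberg adjusted p = 0.121). It was -0.93 to -0.65 with a library left out and kept its call without either control. The gene is at chr2:92452764-92460538, minus strand. *Slc35b1*, a carrier that exchanges ADP for ATP across the membrane of the endoplasmic reticulum, was at 19.5 and 21.2 FPKM against 14.0 and 13.3 FPKM. Its log2FC of -0.57 ± 0.10 kept its call in all 4 fits with a library left out.

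The other members of family 35 that fell were *Slc35b3* and *Slc35a1*. *Slc35b3*, a transporter of the sulphate donor PAPS, was at 4.58 and 4.56 FPKM in shNC and at 2.75 and 3.30 FPKM in shNAT10 (log2FC -0.59, -0.71 to -0.46 with a library left out), and kept its call without either shNAT10 library. *Slc35b2*, the other PAPS transporter and the most abundant gene of the family, was at 22.5 and 22.7 FPKM against 24.8 FPKM in each shNAT10 library and was not called. *Slc35a1*, which brings CMP-sialic acid into the Golgi, was at 8.24 and 9.33 FPKM against 7.02 and 6.23 FPKM (log2FC -0.40, -0.49 to -0.31 with a library left out), and no such fit kept its call. The carriers of UDP-galactose and of UDP-N-acetylglucosamine, *Slc35a2* and *Slc35a3*, were named with their values known and had log2 fold changes of 0.05 and -0.23, neither of them called.

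**Figure D5:**
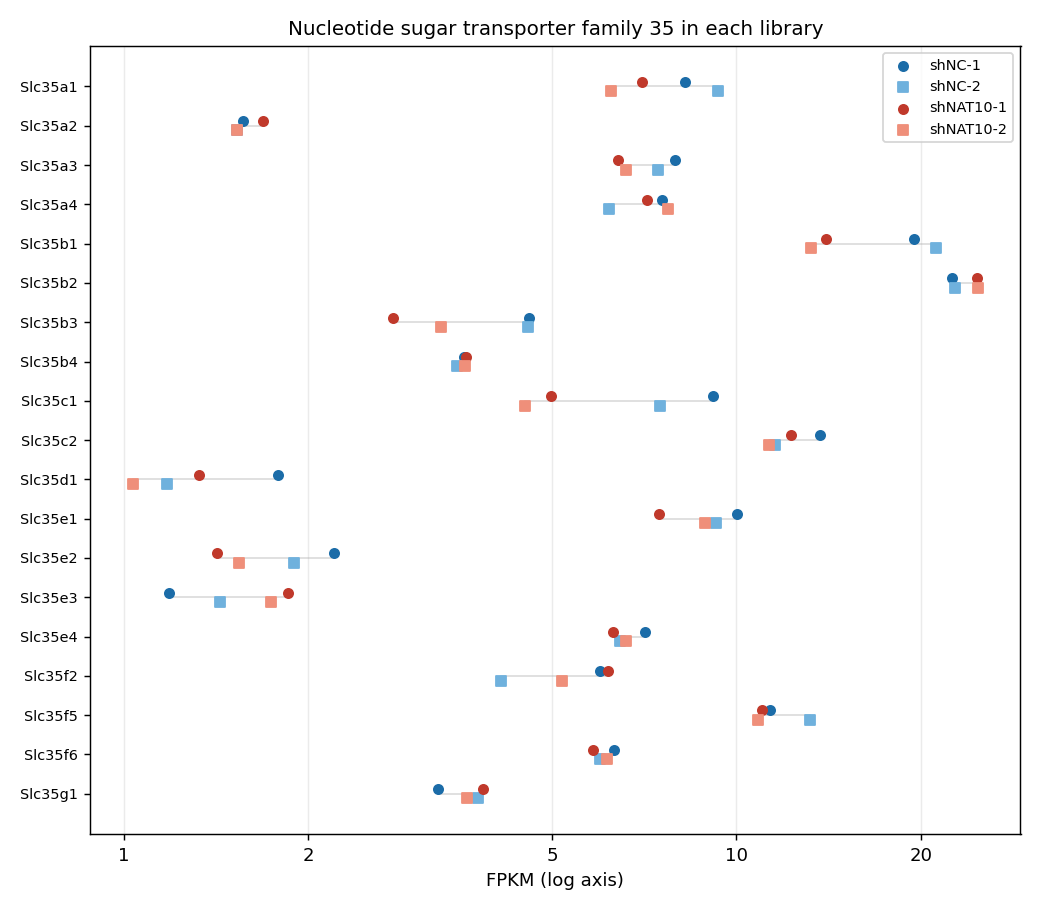
FPKM (log axis) of the 19 members of family 35 in each of the 4 libraries, 1 marker per library. Slc35a1, Slc35b1, Slc35b3 and Slc35c1 have both shNAT10 markers to the left of both shNC markers and were called, while the markers of Slc35b2 lie between 22.5 and 24.8 FPKM.

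Vitamin carriers held the largest rise. *Slc19a2*, the high-affinity thiamine transporter, is at chr1:164249046-164265385, plus strand. It was at 2.44 and 3.05 FPKM in shNC and at 4.86 and 4.93 FPKM in shNAT10, 1.76-fold higher (log2FC 0.82 ± 0.16, limma, Benjamini-Hochberg adjusted p = 0.127). The shNAT10 libraries were close to each other and above both controls, and the log2 fold change was 0.66 to 0.97 with each library left out. The call held without either control but not without shNAT10-1 or shNAT10-2. It rested on 773 fragments in all. Of the other 4 vitamin carriers none was called. The reduced folate carrier *Slc19a1*, its relative, was at 8.23 and 6.20 FPKM against 7.91 and 7.71 FPKM, and would be called higher without shNC-1 (log2FC 0.33).

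Single genes of other classes differed too. *Slc29a1*, the equilibrative nucleoside transporter and the sole nucleoside carrier among the members, was at 14.4 and 12.8 FPKM in shNC and at 16.8 and 19.7 FPKM in shNAT10 (log2FC 0.42 ± 0.12), but no fit with a library left out kept the call (0.30 to 0.53). Of the 4 organic ion carriers, the urea transporter *Slc14a1* rose, from 2.41 and 2.66 FPKM to 3.77 and 3.90 FPKM (log2FC 0.58 ± 0.14), and it held without either control (0.51 to 0.65 with a library left out). Of the 7 phosphate and anion carriers, the phosphate importer *Slc20a1* fell, from 5.005 and 4.54 FPKM to 3.60 and 3.31 FPKM (log2FC -0.46 ± 0.13), and it held without shNC-2 alone (-0.52 to -0.39 with a library left out). Of its exon bases 13.1% overlap other genes. Its relative *Slc20a2*, named after its values had been seen, was at 4.11 and 2.89 FPKM against 4.61 and 5.38 FPKM and was not called (log2FC 0.52 ± 0.21). The glucose-6-phosphate carrier *Slc37a4* had a log2 fold change of -0.05. Of the 8 lipid carriers, *Slc10a3*, a relative of the bile acid transporters without a firm substrate, fell from 7.53 and 6.54 FPKM to 4.65 and 5.38 FPKM (log2FC -0.48, -0.58 to -0.38 with a library left out), and no such fit kept the call. Its exons share 258 bases with *Ubl4a* on the same strand. *Slc33a1*, which imports acetyl-CoA into the endoplasmic reticulum, was at 21.9 and 25.3 FPKM against 20.5 and 19.5 FPKM and was not called, although without shNC-1 it passed (log2FC -0.34). Of its exon bases 32.0% overlap another gene.

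With all 4 libraries in limma no gene was called among the 14 carriers for ion exchange, whose log2 fold changes ran from -0.31 to 0.31, or among the 3 carriers of peptides and vesicles. *Slc24a5*, the highest of the ion carriers, was at 12.6 to 13.4 FPKM in every library, but 39.5% of its exon bases lie opposite *Myef2*, so its level and rank are uncertain. The sodium, potassium and chloride cotransporter *Slc12a2* was at 4.53 and 4.64 FPKM in shNC and at 6.64 and 4.89 FPKM in shNAT10, and it was called higher without shNAT10-2 (log2FC 0.52) and by limma-voom (log2FC 0.30). *Slc18a2*, which loads monoamines and histamine into granules, was at 18.3 and 16.5 FPKM against 16.5 and 16.2 FPKM. It belongs to a list of 10 carriers used mostly by blood cells, which summed to 47.5 and 41.6 FPKM in shNC and to 41.3 and 40.9 FPKM in shNAT10, with 1 of them, *Slc25a38*, called. *Slc4a1*, the anion exchanger of red cells, was at 0.

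The symbol pattern also took in 4 genes that encode no carrier, and none of them was called. They are the scaffold proteins *Slc9a3r1* and *Slc9a3r2*, the adaptor *Slc4a1ap* and *Slc7a6os*, a gene opposite to a carrier gene. *Slc9a3r1* was the highest, at 25.7 and 23.7 FPKM in shNC and at 24.7 and 24.8 FPKM in shNAT10.

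Genes of solute transport outside these families were given by list. Of 53 genes listed 52 were in the table and 50 were tested, with 5 higher and 10 lower in shNAT10, against 8.41% and 7.83% of all genes. Among the 22 carriers with another symbol 2 rose and 4 fell. The largest change was that of *Mfsd2a*, which takes up lysophosphatidylcholine with long fatty acids, at 3.67 and 5.28 FPKM in shNC, against 1.49 and 1.25 FPKM in shNAT10 (log2FC -1.62 ± 0.23, limma, Benjamini-Hochberg adjusted p = 0.084). *Mfsd10*, *Npc1* and the mitochondrial uncoupling protein *Ucp2* also fell, by 0.50, 0.46 and 0.31 on the log2 scale, and *Mtch1* and the lysosomal cysteine importer *Mfsd12* rose with log2 fold changes of 0.42 and 0.59. Of the 6 partners and chaperones of carriers, *Emb*, a partner of monocarboxylate carriers, rose (log2FC 0.69), while *Bsg*, the main partner of *Slc16a1*, was at 88.5 and 147 FPKM against 103 and 105 FPKM. Of the 7 pumps, *Atp2a2*, which fills the endoplasmic reticulum with calcium, fell from 25.9 and 24.02 FPKM to 15.1 and 14.8 FPKM (log2FC -0.74 ± 0.09, limma, Benjamini-Hochberg adjusted p = 0.070), and *Atp1b1*, a subunit of the sodium pump, rose (log2FC 0.75). Of the 5 genes of mitochondrial calcium uptake, *Micu2* fell by 0.29 on the log2 scale, and none of the 3 kinases of cation-chloride cotransporters was called. With single libraries left out, *Atp2a2* and *Tfrc* kept their calls in all 4 fits, *Mfsd2a* in 3, *Hmox1*, *Ucp2* and *Micu2* in 2, *Steap3*, *Emb*, *Mtch1*, *Mfsd10* and *Mfsd12* in 1, and *Npc1* and *Atp1b1* in none. The log2FC of *Mfsd12* ran from 0.34 to 0.85 and that of *Mfsd10* from -0.70 to -0.30. Scaled to the fragments outside rRNA-related loci, *Mfsd10*, *Npc1*, *Ucp2* and *Micu2* were not called, with log2FC of -0.45, -0.42, -0.26 and -0.24.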

How the data were processed

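Long RNA-seq libraries of shNC and shNAT10 FGSCs, 2 per group, were grouped by the titles and genotype labels. The submitters' processing notes name cutadapt, HISAT2, DESeq2 and the build mm10, and the counting program is not given in the sources used here. The authors deposited FPKM for each library, and for 13023 genes a log2 fold change with p-values of their own comparison, which was not used. Columns of single libraries left out numbered 0. FPKM steps and the exon lengths of GENCODE M21 (GRCm38) gave back whole fragments within 0.02 for 96.0% to 96.6% of values under 50 fragments, which describes the depth, the precision (20 to 3802 fragments in the least covered library of a member) and served 2 alternatives.

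Limma 3.58.1 (R 4.3.3) with a mean-variance trend was fitted to log2(FPKM + 0.1) of the 20116 genes with a mean of at least 0.1 FPKM, two-sided, with Benjamini-Hochberg adjustment over all of them. A fold change over 1.2 with p of at most 0.05, the threshold in the study's legend, made a call. The study's DESeq2 test needs counts and was not run. The test was run on simulated data of 18671 genes, where it called 194 of 199 genes changed by a log2 fold change of 1.5 and 4.62% of the unchanged genes. The simulation used 1 fixed spread for all genes, changed only well covered genes and left out rRNA-related loci. Log2 fold changes of the members ran only from -0.84 to 0.82, so it does not show how often changes of their size are called.

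Members, classes (by family number) and the lists for related transport genes and cell type markers were chosen with earlier results of these data known. Named genes are, in each class, up to 3 called rises and falls and the highest member, members with a role set beforehand, symbols that are no carriers, and related genes that were called. Other members, among them *Slc5a3*, *Slc5a6*, *Slc6a13*, *Slc20a2*, *Slc25a24*, *Slc25a37*, *Slc35a2*, *Slc35a3* and *Slc38a6*, were named only once their values were known.

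The replicate numbers did not pair the libraries: deviations from the group means correlated with r = 0.00711 over 20116 genes, which are not independent. Alternatives were pseudocounts of 1 and 0.01, no filter or 1 FPKM, median-ratio, quantile and common-total scaling, no trend, the replicate block, each library left out, voom and members at 1 FPKM in every library. Scaling to fragments outside rRNA-related loci and members without exonic overlap were added after seeing the data. Python 3.11.15 with pandas 2.3.3, scipy 1.17.1 and matplotlib 3.10.9 did the rest. Promoter windows are those of RefSeq, GRCm38.p6.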

Additional observations from a re-analysis of the deposited data

How the results depend on the processing

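The counts of members called moved with the fit and with single libraries. Limma without the trend called 2 members higher and 8 lower and limma-voom on recovered fragments 12 higher and 27 lower, while members without exonic overlap gave 2 higher and 11 lower, an alternative chosen after seeing the data. With a library left out the count of genes higher was 1 to 6, the count lower 6 to 17 and the median log2 fold change of the members -0.11 to -0.0507, and *Nat10* ran from -1.35 to -0.83. Scaling to fragments outside rRNA-related loci, also chosen after seeing the data, gave a median of -0.0453, with the median of all genes at 0.05. Fits with a library left out assume that a lone library varies like the other group. The cause of these shifts was not tested, apart from fewer libraries or genes where the alternative itself removes them.

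The replicate numbers were shared by the groups but did not pair the libraries, and the fit with the replicate block gave 7 higher and 18 lower, with 24 calls in common and 1 more, *Slc16a1* (log2 fold change 0.52, higher). Outside the members, the block ended the calls of *Atp1b1*, *Npc1* and *Ucp2*. Under pseudocounts, filters, quantile and common-total scaling the counts were 6 or 7 higher and 17 to 20 lower, and members at 1 FPKM in every library gave 6 and 18. Median-ratio rescaling kept the same 24 calls and moved the median log2 fold change of the members only from -0.0951584 to -0.0951551. The FPKM were already close to that scale, so this alternative could hardly change a call and is no separate check. Among the named genes, changes of sign under the alternatives run were seen with a library left out, in genes that were not called, where the log2 fold change of *Slc37a4* ran from -0.19 to 0.0941, *Slc4a1ap* from -0.22 to 0.27, *Slc7a6os* from -0.29 to 0.13, *Slc19a1* from -0.0750 to 0.33, *Slc38a10* from -0.00885 to 0.18, *Slc9a3r1* from -0.0548 to 0.0630 and *Slc25a5* from -0.23 to 0.11. In all, 757 comparisons of a named gene with an alternative, median-ratio rescaling included, kept direction and call, 128 lost the call, 6 gained it and 9 changed sign. With 2 libraries per group no exact test can pass, and genes near 1 FPKM rest on as few as 20 fragments in a library, where PCR copies are not told apart.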
